A study of Mus musculus with 6 samples.

Results

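The transcripts described here encode 8 effector molecules of lymphocytes and myeloid cells: Ifng, the death ligands Fasl and Tnfsf10, the related cytokines Tnf and Lta, and the interleukins Il2, Il21 and Il10. They were taken by name, not by their values, out of 32286 genes in the deposited matrices, and unique molecular identifiers (UMIs) of all 8 were present in each of the 3 mRNA libraries. The question put to the data was which liver immune cells carried each transcript, and how the level within a cell class differed between the libraries.

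Immune cells were isolated from whole mouse livers 30 days after infection and profiled by droplet 3′ single-cell RNA sequencing with antibody tags. The AAV-sgBaat library came from livers given an adeno-associated virus with a guide RNA against Baat, the gene of the liver enzyme that joins bile acids to amino acids. The AAV-sgSCR library came from livers given the control virus, and the mock library from mock-infected livers. Each library was a pool of 3 tumor samples, so every group had 1 library, no test between groups was possible, and all intervals below are 95% intervals for counting error alone. The series text describes all 3 groups as tumor bearing, while the title of the mock library calls it native liver. The tumor model, the mouse strain and age, and the source of the nuclease are not given in the sources used here. T cells and the remaining CD45hi cells were sorted apart and then combined, so the proportion of T cells depends on that mixing step, and levels were compared within a cell class.

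Barcodes with at least 500 genes, at least 1000 gene UMIs and at most 10% mitochondrial UMIs were kept, which left 7094 AAV-sgBaat, 7332 AAV-sgSCR and 6068 mock barcodes with 46301256, 61084903 and 31256049 gene UMIs. Their median depth was 3811.5 UMIs in AAV-sgBaat, 5911 in AAV-sgSCR and 4164 in mock. Ptprc, the pan-leukocyte CD45 gene, was found in 77.8%, 90.8% and 92.3% of these barcodes in the same order. Baat itself is a hepatocyte gene and had 1 UMI in AAV-sgBaat, 15 in AAV-sgSCR and 5 in mock, so these immune cells do not show whether the guide acted. The libraries shared few barcode sequences: 16 between AAV-sgBaat and AAV-sgSCR, 10 between AAV-sgBaat and mock and 15 between AAV-sgSCR and mock.

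Each barcode was put in a class by UMIs of marker genes, none of which is one of the 8 transcripts. CD8 T cells numbered 866 in AAV-sgBaat, 1895 in AAV-sgSCR and 588 in mock, natural killer (NK) cells 117, 115 and 433, and type 1 innate lymphoid cells (ILC1) 87, 148 and 110. Neutrophils numbered 639 in AAV-sgBaat and 1004 in AAV-sgSCR, against 12 in mock, and B cells 426, 740 and 2905. A barcode with a T, NK or B cell panel together with a panel of another lineage was set aside as mixed-lineage, which took 26.6% of barcodes in AAV-sgBaat, 18.5% in AAV-sgSCR and 6.41% in mock. The mixed barcodes were deeper than the rest, with a median of 7481.5 UMIs in AAV-sgBaat, 12176 in AAV-sgSCR and 9230 in mock. Trbc2, a T cell receptor constant gene, was found in 96.2% of CD8 T cells in AAV-sgBaat, 98.3% in AAV-sgSCR and 98.0% in mock. It does not define the class, since 49.6%, 49.6% and 42.5% of NK cells also had it. The alpha chain gene Trac was less even over the libraries, in 69.3%, 92.4% and 80.3% of CD8 T cells. RNA of another lineage in T cell barcodes also differed between the libraries, since S100a8, a neutrophil gene, was found in 28.3% of AAV-sgBaat and 54.2% of AAV-sgSCR CD8 T cells, against 0.51% of mock CD8 T cells.

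Interferon-gamma, the product of Ifng, is made by activated T cells, NK cells and ILC1 and switches on antigen presentation and antiviral genes in target cells. The Fas ligand and TRAIL, the products of Fasl and Tnfsf10, are membrane ligands that trigger caspase-driven death through receptors on the target cell, and TRAIL is a known mark of liver ILC1. TNF and lymphotoxin-alpha signal through TNF receptors, TNF being made by myeloid cells as well as lymphocytes, while interleukins 2, 21 and 10 act mainly between leukocytes, the last as a restraint on inflammation. Many of these genes are switched on by NFAT factors, which act downstream of antigen receptors and bind DNA at sites built around GGAAA.

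Of these genes, Tnf and Lta are close neighbours, as are Il2 and Il21. Tnf (ENSMUSG00000024401) at chr17:35199367-35202007 and Lta (ENSMUSG00000024402) at chr17:35203165-35205578 are 1157 bases apart, and Il2 (ENSMUSG00000027720) at chr3:37120713-37125954 and Il21 (ENSMUSG00000027718) at chr3:37222759-37232636 are 96.8 kb apart. Ifng (ENSMUSG00000055170) lies at chr10:118441046-118445894, Fasl (ENSMUSG00000000817) at chr1:161780691-161788495, Tnfsf10 (ENSMUSG00000039304) at chr3:27317077-27339665 and Il10 (ENSMUSG00000016529) at chr1:131019845-131024970, all on mm10.

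RefSeq promoters of GRCm38.p6, from 250 bases before to 50 bases after the gene start, matched 7 of the 8 genes. The 4 shown are those of Ifng and Fasl, whose levels ran alike across cell classes, of the other death ligand, Tnfsf10, and of Tnf, whose level followed another order. Each reads 5′ to 3′ on the strand of the gene, and the capitals mark GGAAA or, for a match on the other strand, TTTCC.
Ifng, chr10:118440796-118441095, plus strand: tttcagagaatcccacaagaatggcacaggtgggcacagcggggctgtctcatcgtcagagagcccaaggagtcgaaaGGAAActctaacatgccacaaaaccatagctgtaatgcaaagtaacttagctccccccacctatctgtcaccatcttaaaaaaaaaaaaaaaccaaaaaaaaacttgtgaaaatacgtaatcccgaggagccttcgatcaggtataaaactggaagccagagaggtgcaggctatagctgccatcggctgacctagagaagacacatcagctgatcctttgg
Fasl, chr1:161788446-161788745, minus strand: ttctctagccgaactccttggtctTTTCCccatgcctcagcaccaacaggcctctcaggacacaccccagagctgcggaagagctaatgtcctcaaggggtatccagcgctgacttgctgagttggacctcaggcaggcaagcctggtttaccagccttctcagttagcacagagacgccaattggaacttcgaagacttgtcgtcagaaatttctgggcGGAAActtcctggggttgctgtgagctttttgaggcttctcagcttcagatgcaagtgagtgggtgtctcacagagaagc
Tnfsf10, chr3:27316827-27317126, plus strand: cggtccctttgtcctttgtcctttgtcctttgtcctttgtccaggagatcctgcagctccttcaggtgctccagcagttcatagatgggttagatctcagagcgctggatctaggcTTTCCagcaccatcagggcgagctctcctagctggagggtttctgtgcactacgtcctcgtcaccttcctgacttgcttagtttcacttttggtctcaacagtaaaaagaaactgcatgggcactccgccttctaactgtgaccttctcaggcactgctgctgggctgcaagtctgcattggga
Tnf, chr17:35201958-35202257, minus strand: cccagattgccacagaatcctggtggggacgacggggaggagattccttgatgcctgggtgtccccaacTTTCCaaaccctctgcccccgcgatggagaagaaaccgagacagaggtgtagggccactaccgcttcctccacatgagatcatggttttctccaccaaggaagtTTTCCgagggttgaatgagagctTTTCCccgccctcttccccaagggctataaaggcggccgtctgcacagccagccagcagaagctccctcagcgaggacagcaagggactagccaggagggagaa
GGAAA occurred 1 time in the Ifng window, 2 times in that of Fasl, 1 time in that of Tnfsf10 and 3 times in that of Tnf. It also occurred 3 times in the Lta and Il21 windows and 2 times in the Il2 window, but 61.3% of all 32851 promoters of this length held it on either strand. The T-box letters GGTGTG were present in the Fasl and Il21 windows, 1 time each, against 19.0% of all promoters. The interferon-response letters AANNGAAA were present in the Ifng window 1 time and in the Tnfsf10 and Il21 windows 2 times each, against 23.9% of all promoters, and TGANTCA, the letters bound by AP-1, was in none of the 7, against 7.81% of all promoters. All motifs were searched on both strands, and the AANNGAAA match of the Ifng window overlaps its GGAAA. These matches describe the letters in the windows and are not binding sites.

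Ifng was a transcript of T cells, NK cells and ILC1. T cells held 48.8% of the Ifng UMIs of the AAV-sgBaat library, 56.5% of those of AAV-sgSCR and 52.2% of those of mock, and NK cells with ILC1 held 16.3%, 8.88% and 34.1%. CD8 T cells alone held 31.5% in AAV-sgBaat and 43.2% in AAV-sgSCR, against 13.3% in mock. Mixed-lineage barcodes held 32.7%, 32.5% and 12.8%, most of it in barcodes with a T cell panel, which held 31.5%, 32.0% and 10.5%. B cells, which should lack the gene, had an Ifng UMI in 0.939%, 1.49% and 0.826% of cells at median depths of 2179, 2910 and 3443 UMIs, a background far under the 26.7%, 37.6% and 30.8% of CD8 T cells at 3614, 5022 and 5778 UMIs.

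**Figure D1:**
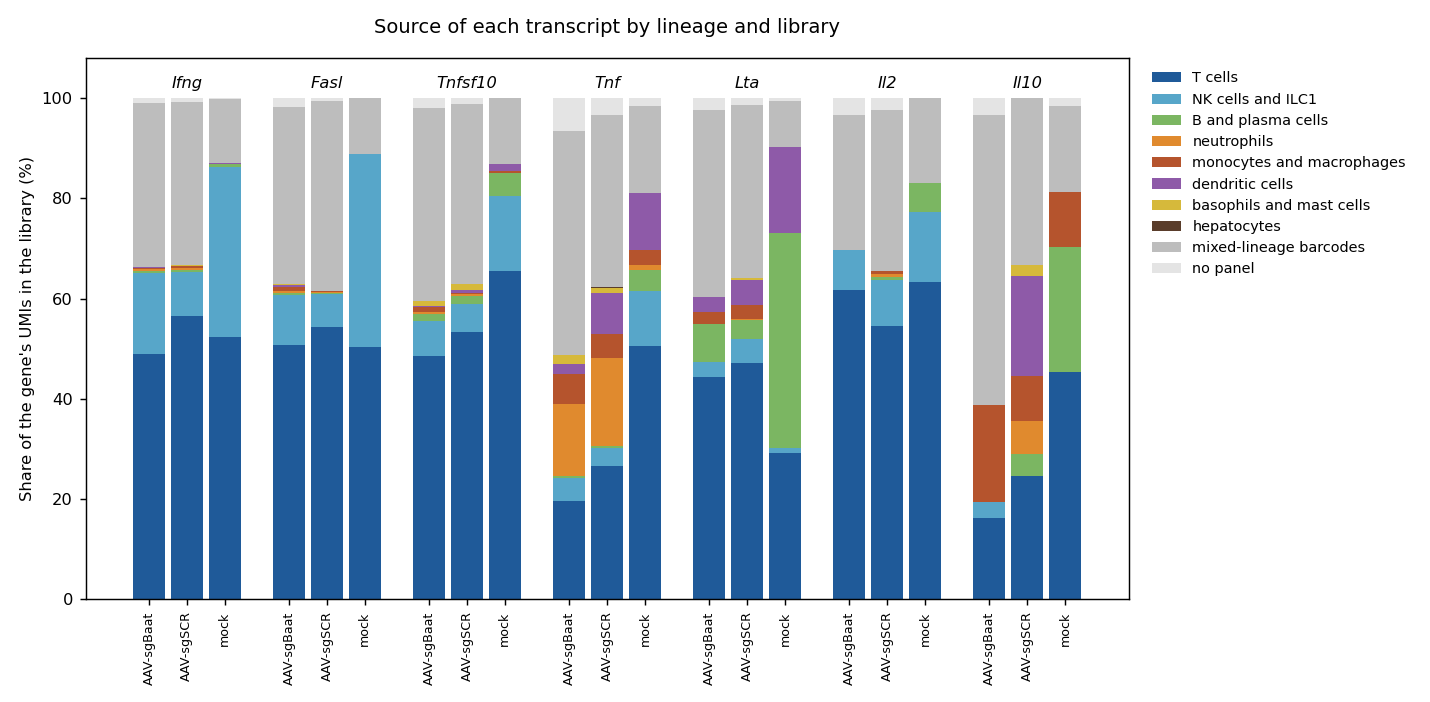
Share of each gene's UMIs (%, vertical axis) held by each lineage in the AAV-sgBaat, AAV-sgSCR and mock libraries, for 7 genes. T cells held about as much of the Ifng UMIs in each library, 48.8%, 56.5% and 52.2%, whereas neutrophils held 14.4% of the AAV-sgBaat and 17.5% of the AAV-sgSCR Tnf UMIs, and B and plasma cells held 42.9% of Lta UMIs in mock.

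Within CD8 T cells, with mixed-lineage barcodes set aside, the summed Ifng level was alike in all 3 libraries. With mixed barcodes kept, both virus libraries lay below mock, as given at the end. It stood at 135 CPM (the gene's UMIs scaled to all gene UMIs of the class; 124 to 148) in AAV-sgBaat, 129 (123 to 136) in AAV-sgSCR and 136 (125 to 149) in mock. The intervals overlap, and the log2 ratio was 0.07 (-0.08 to 0.22) for AAV-sgBaat over AAV-sgSCR, -0.01 (-0.19 to 0.17) for AAV-sgBaat over mock and -0.08 (-0.22 to 0.07) for AAV-sgSCR over mock. After every cell was thinned to 2000 UMIs, which left out 172, 54 and 5 shallower cells, the share of CD8 T cells with an Ifng UMI was 20.5% in AAV-sgBaat, 20.9% in AAV-sgSCR and 14.4% in mock. The makeup of the class differed, with Tcf7 in 40.0%, 24.3% and 69.6% of its cells and Cd200r1 in 17.4%, 32.5% and 4.42%. Its part in the CD8 T cell levels was not tested.

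The equal sums hid a different spread over cells. CD8 T cells with at least 5 Ifng UMIs were 18 cells or 2.08% in AAV-sgBaat, 45 cells or 2.37% in AAV-sgSCR and 29 cells or 4.93% in mock, and they held 31.3%, 22.0% and 45.0% of the Ifng UMIs of the class. In mock a larger part of the level therefore lay in a few cells. One AAV-sgBaat cell carried 31 UMIs, 6.38% of the 486 UMIs of its class.

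NK cells and ILC1 were the highest classes for Ifng in AAV-sgBaat and in mock, and NK cells the highest in AAV-sgSCR. NK cells had 286 CPM (234 to 346) in AAV-sgBaat, 217 (178 to 262) in AAV-sgSCR and 578 (543 to 614) in mock, and ILC1 had 291 (239 to 349.7), 164 (139.7 to 191) and 548 (488 to 613). Both classes were highest in mock with intervals clear of the other libraries, and in ILC1 the AAV-sgBaat interval also lay above that of AAV-sgSCR. The log2 ratio of AAV-sgBaat over AAV-sgSCR was 0.83 (0.46 to 1.18) in ILC1 and 0.40 (-0.00 to 0.80) in NK cells. Against mock it was -0.91 (-1.24 to -0.60) in ILC1 and -1.02 (-1.32 to -0.72) in NK cells for AAV-sgBaat, and -1.74 (-2.02 to -1.46) and -1.41 (-1.71 to -1.13) for AAV-sgSCR. The comparisons with mock share the mock library.

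The share of cells with an Ifng UMI was also highest in mock. It was 47.1%, 38.5% and 83.6% of ILC1 and 41.9%, 45.2% and 67.0% of NK cells in AAV-sgBaat, AAV-sgSCR and mock, and after thinning to 2000 UMIs 38.3%, 25.3% and 58.2% of ILC1 and 32.6%, 27.0% and 52.3% of NK cells. NK cells with at least 5 Ifng UMIs were 5 of 117 in AAV-sgBaat and 2 of 115 in AAV-sgSCR, against 61 of 433 in mock.

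The other innate-like T cells resembled NK cells in this respect. NKT cells, T cells with Zbtb16 or NK receptor UMIs, had 179.7 CPM in AAV-sgBaat and 186 CPM in AAV-sgSCR, against 377 in mock, a log2 ratio to mock of -1.07 (-1.57 to -0.61) and -1.02 (-1.36 to -0.69). T cells with UMIs of gamma or delta chain genes, called gamma-delta T cells here, had 137 CPM in AAV-sgBaat and 137 CPM in AAV-sgSCR, against 342 in mock, with ratios of -1.32 (-1.82 to -0.85) and -1.31 (-1.65 to -0.99). The alpha chain gene Trac, which goes against that name, was found in 35.7% of these cells in AAV-sgBaat, 40.7% in AAV-sgSCR and 65.9% in mock, so the makeup of the class differed, and its part in these ratios was not tested. CD4 T cells ran the other way, with 105 CPM in AAV-sgBaat and 130.5 CPM in AAV-sgSCR against 77.6 in mock, although only the AAV-sgSCR ratio, 0.75 (0.32 to 1.17), cleared 0. In AAV-sgSCR 1 of these CD4 T cells held 13 of the 72 Ifng UMIs. The makeup of the CD4 class differed too, with Tcf7 in 38.3%, 53.4% and 87.6% of its cells, and its part in this ratio was not tested. Immature T cells, which carry Dntt, Rag1 and related thymocyte genes and were 868 cells in AAV-sgBaat, 94 in AAV-sgSCR and 0 in mock, had only 5.82 and 4.98 CPM of Ifng.

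**Figure D2:**
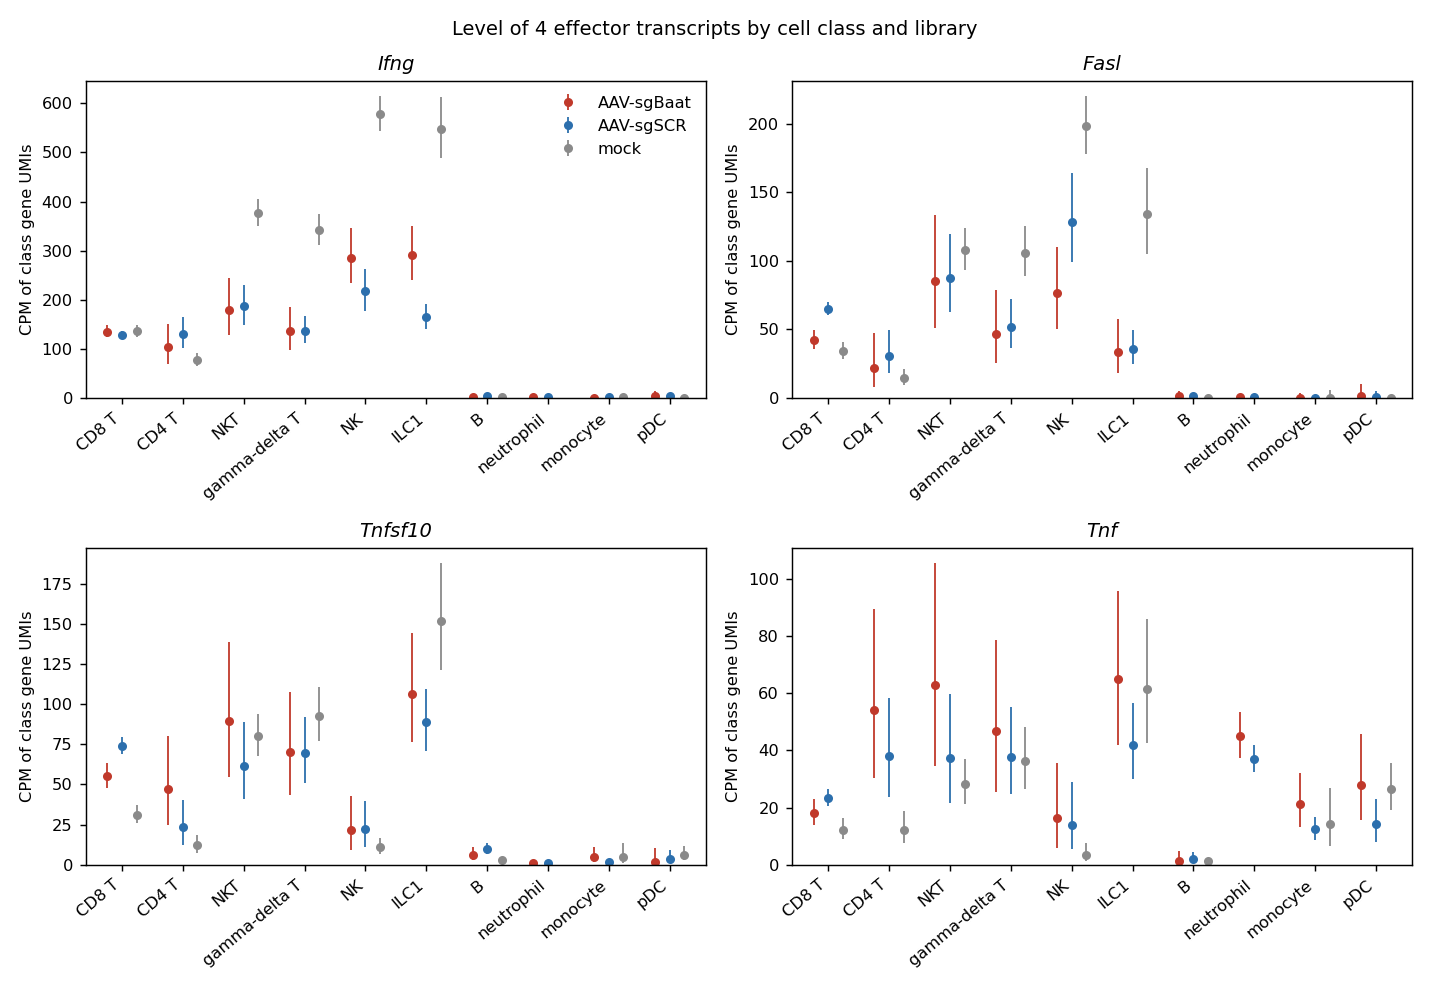
Level of Ifng, Fasl, Tnfsf10 and Tnf (CPM of the class, vertical axes) in 10 cell classes of the AAV-sgBaat, AAV-sgSCR and mock libraries. Points are summed levels and bars exact 95% Poisson intervals of counting error. For Ifng the mock points of NK cells (578 CPM) and ILC1 (548 CPM) lie far above those of both virus libraries, while the CD8 T cell points lie together at 135, 129 and 136 CPM.

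Fasl was carried by the same lineages as Ifng, with NK cells at the top in AAV-sgSCR and mock. NK cells had 76.2 CPM (50.6 to 110.2) in AAV-sgBaat, 129 (98.99 to 164) in AAV-sgSCR and 198 (178 to 220.1) in mock. The 3 values were in the order AAV-sgBaat, AAV-sgSCR, mock, with AAV-sgBaat and AAV-sgSCR overlapping slightly in their intervals. The log2 ratio of AAV-sgBaat over AAV-sgSCR was -0.75 (-1.45 to -0.09), and the ratios to mock were -1.38 (-1.99 to -0.82) and -0.62 (-1.03 to -0.24). ILC1 had 33.7 CPM in AAV-sgBaat and 35.7 CPM in AAV-sgSCR, against 134 in mock, with ratios to mock of -1.99 (-2.96 to -1.13) and -1.91 (-2.53 to -1.31), and gamma-delta T cells 46.8 and 52.1 against 106. Fasl was thus about as low in both virus libraries in these cells, and the ILC1 log2 ratio between them was -0.08 (-1.12 to 0.87).

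CD8 T cells showed another order for Fasl. Their level was 42.1 CPM (35.6 to 49.3) in AAV-sgBaat, 65.0 (60.3 to 70.0) in AAV-sgSCR and 34.4 (28.7 to 40.8) in mock, so AAV-sgSCR stood above both others, which overlapped each other. The log2 ratio was -0.63 (-0.89 to -0.37) for AAV-sgBaat over AAV-sgSCR, 0.29 (-0.06 to 0.64) for AAV-sgBaat over mock and 0.92 (0.65 to 1.201) for AAV-sgSCR over mock. A Fasl UMI was found in 14.5%, 28.4% and 15.0% of CD8 T cells, and in 8.50%, 13.5% and 5.83% after thinning to 2000 UMIs, against 0.469%, 0.541% and 0.0344% of B cells before thinning.

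By point level Tnfsf10 was highest in ILC1 in every library, but in the virus libraries its lead over T cell classes was not resolved. The NKT level in AAV-sgBaat lay inside the ILC1 interval, and in AAV-sgSCR the CD8 T cell interval given below overlapped that of ILC1. ILC1 had 106 CPM (76.3 to 144) in AAV-sgBaat, 88.6 (71.0 to 109) in AAV-sgSCR and 152 (121 to 188) in mock, and NK cells only 21.8, 22.1 and 10.8. The log2 ratio of ILC1 over NK cells was 2.29 (1.18 to 3.59) in AAV-sgBaat, 2.00 (1.09 to 3.06) in AAV-sgSCR and 3.81 (3.08 to 4.61) in mock, so the death ligands divided these classes: Fasl was higher in NK cells, by 1.18 (0.18 to 2.25), 1.85 (1.23 to 2.49) and 0.57 (0.20 to 0.95), and Tnfsf10 in ILC1. NKT cells (89.8, 61.4 and 80.2 CPM) and gamma-delta T cells (70.2, 69.4 and 92.9 CPM) also carried Tnfsf10, with no ratio between libraries whose interval cleared 0.

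In CD8 T cells Tnfsf10 followed the order of Fasl, with 55.2 CPM (47.7 to 63.4) in AAV-sgBaat, 74.1 (69.1 to 79.4) in AAV-sgSCR and 31.2 (25.8 to 37.4) in mock. None of the 3 intervals overlapped. The log2 ratio was -0.43 (-0.66 to -0.20) for AAV-sgBaat over AAV-sgSCR, 0.82 (0.49 to 1.16) for AAV-sgBaat over mock and 1.25 (0.97 to 1.54) for AAV-sgSCR over mock. A UMI was found in 17.6%, 30.3% and 13.3% of CD8 T cells, in 10.5%, 13.1% and 5.83% after thinning, and in 1.88%, 3.65% and 0.998% of B cells without thinning.

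**Figure D3:**
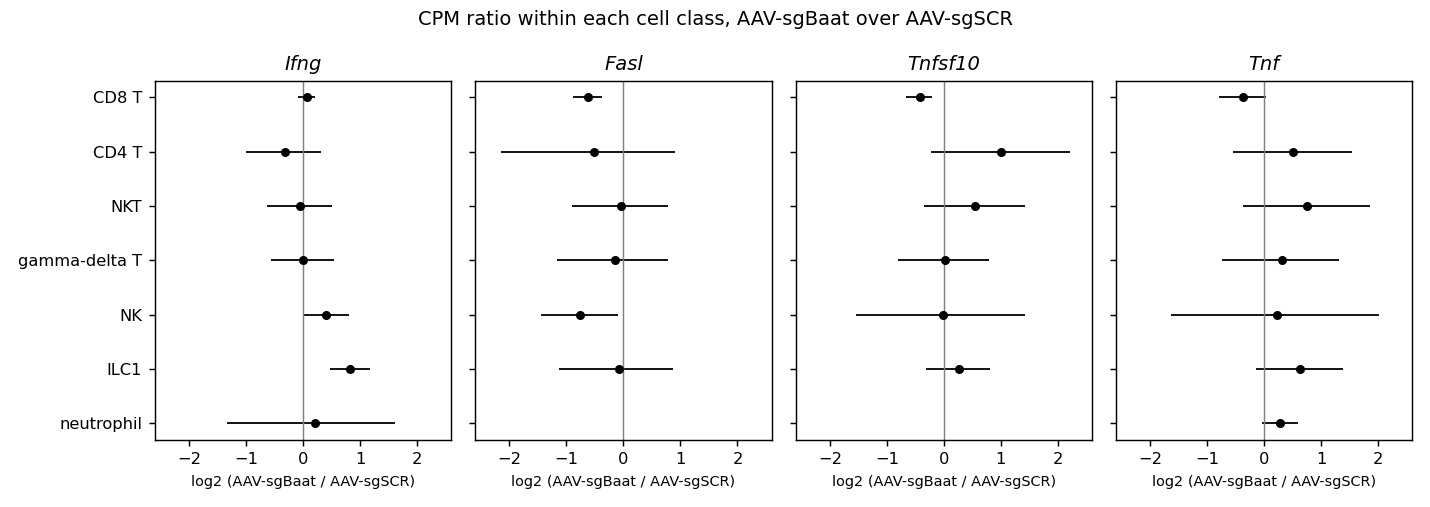
Log2 ratio of CPM, AAV-sgBaat over AAV-sgSCR (horizontal axes), of Ifng, Fasl, Tnfsf10 and Tnf in 7 cell classes. Points are ratios and bars exact 95% intervals of counting error. The CD8 T cell points of Fasl (-0.63) and Tnfsf10 (-0.43) lie below 0 while that of Ifng (0.07) lies on it, and the ILC1 point of Ifng (0.83) lies above 0.

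Tnf differed from the other transcripts in its sources. Mixed-lineage barcodes held 44.7% of Tnf UMIs in AAV-sgBaat, 34.3% in AAV-sgSCR and 17.3% in mock, T cells 19.5%, 26.5% and 50.5%, and neutrophils 14.4% and 17.5% in AAV-sgBaat and AAV-sgSCR. No class measured here is known to lack Tnf, and the lowest, B cells, had 1.32, 2.18 and 1.26 CPM, with a UMI in 0.469%, 0.946% and 0.448% of cells. Neutrophils, which can release TNF at sites of injury, had 44.8 CPM (37.4 to 53.3) in AAV-sgBaat and 36.8 CPM (32.3 to 41.8) in AAV-sgSCR. The intervals overlap, with a log2 ratio of 0.28 (-0.04 to 0.60). A UMI was found in 15.2% and 18.2% of neutrophils at median depths of 3484 and 5023.5 UMIs, and in 9.82% and 6.27% after thinning to 2000 UMIs, which left out 201 and 63 cells. The 12 mock neutrophils were too few to compare.

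By point level ILC1 led the named lymphoid classes for Tnf in every library, at 64.9 CPM (42.0 to 95.8) in AAV-sgBaat, 41.8 (30.0 to 56.7) in AAV-sgSCR and 61.5 (42.6 to 85.9) in mock. In both virus libraries this lead was not resolved, since the intervals of NKT, CD4 and gamma-delta T cells overlapped that of ILC1. Those T cells had 14, 15 and 14 Tnf UMIs in AAV-sgBaat and 17, 21 and 26 in AAV-sgSCR. The gamma-delta T cell interval also overlapped it in mock, from 47 UMIs. Between libraries the ILC1 intervals overlap, as did those of NK cells, at 16.3, 14.1 and 3.43 CPM, between AAV-sgBaat and AAV-sgSCR. CD8 T cells had 18.1 CPM (13.98 to 23.1) in AAV-sgBaat, 23.4 (20.6 to 26.5) in AAV-sgSCR and 12.2 (8.90 to 16.2) in mock. The AAV-sgSCR level was higher than mock, with a log2 ratio of 0.94 (0.49 to 1.43), while AAV-sgBaat over AAV-sgSCR was -0.37 (-0.79 to 0.03).

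Among myeloid cells other than neutrophils, monocytes and macrophages together had 26.5 CPM (19.9 to 34.6) of Tnf in AAV-sgBaat and 16.8 CPM (12.99 to 21.4) in AAV-sgSCR, a log2 ratio of 0.66 (0.113 to 1.2002). The makeup of that class differed, with 204 macrophages of 437 cells in AAV-sgBaat and 81 of 497 in AAV-sgSCR. Within macrophages the ratio was -0.44 (-1.39 to 0.51) and within classical monocytes 0.78 (-0.04 to 1.57), neither of which cleared 0. Basophils and mast cells had 26.5 CPM in AAV-sgBaat and 6.34 CPM in AAV-sgSCR from 16 and 13 UMIs, a ratio of 2.06 (0.92 to 3.24), with a median depth of 3633 against 12815 UMIs. Migratory dendritic cells, found in number only in AAV-sgSCR, held 60 Tnf UMIs in 23 of 112 cells there. In mock plasmacytoid dendritic cells 16 of 42 Tnf UMIs came from 1 cell.

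Lta was scarce, with 131 UMIs in AAV-sgBaat, 320 in AAV-sgSCR and 226 in mock. Its largest source in mock was B cells, with 97 UMIs spread over 92 cells (8.73 CPM), whereas T cells held most of the assigned UMIs in the virus libraries. CD8 T cells had 6.13 CPM in AAV-sgBaat, 10.2 in AAV-sgSCR and 4.49 in mock from 22, 111 and 17 UMIs, and the log2 ratio was -0.74 (-1.47 to -0.07) for AAV-sgBaat over AAV-sgSCR and 1.19 (0.44 to 2.02) for AAV-sgSCR over mock. An Lta UMI was found in 1.96%, 4.59% and 2.55% of CD8 T cells. Monocytes and macrophages, which should lack Lta, had a UMI in 0.229%, 0.402% and 0% of cells, in mock 0 of 81, which allows up to 4.45%. Among CD8 T cells 1 cell held 12 of the 111 Lta UMIs in AAV-sgSCR and 1 cell 4 of the 22 in AAV-sgBaat. Single cells weighed more heavily elsewhere: 34 of the 39 Lta UMIs of mock plasmacytoid dendritic cells lay in 1 cell, and 8 of 8 in AAV-sgSCR macrophages.

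Il2, the growth factor of activated T cells, had 89 UMIs in AAV-sgBaat, 174 in AAV-sgSCR and 106 in mock. Its levels were highest in NKT and CD4 T cells in AAV-sgBaat (35.9 and 25.3 CPM), in CD4 T cells in AAV-sgSCR (21.7 CPM) and in ILC1 in mock (21.7 CPM), although the leading classes in each library overlapped in their intervals, and 6 of the 12 UMIs of AAV-sgSCR CD4 T cells lay in 1 cell. CD8 T cells had 5.01 CPM in AAV-sgBaat, 4.88 in AAV-sgSCR and 2.11 in mock from 18, 53 and 8 UMIs. The log2 ratio between the virus libraries was 0.04 (-0.82 to 0.83), against 1.25 (-0.03 to 2.66) for AAV-sgBaat over mock and 1.21 (0.12 to 2.49) for AAV-sgSCR over mock. B cells had 0, 1 and 6 Il2 UMIs.

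Il21, a cytokine of helper T cells that sustains CD8 T cells, had 2 UMIs in AAV-sgBaat, 38 in AAV-sgSCR and 4 in mock. CD8 T cells held 1, 20 and 2 of them, and mixed T cell barcodes 1, 16 and 0, while B cells, neutrophils and NK cells held 0 in each library. For B cells this allows a share of up to 0.862%, 0.497% and 0.127%. The CD8 log2 ratio of AAV-sgBaat over AAV-sgSCR was -2.72 (-8.10 to -0.08), an interval that the single AAV-sgBaat UMI leaves very wide.

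Il10, which restrains inflammation, had 31, 45 and 64 UMIs. CD8 T cells held 0 of them in AAV-sgBaat, 6 in AAV-sgSCR and 11 in mock. The 0 of 866 AAV-sgBaat cells allows a share of cells with a UMI of up to 0.425%, against 0.317% measured in AAV-sgSCR and 1.70% in mock. The AAV-sgBaat level was 0 CPM (0 to 1.03), against 2.91 CPM (1.45 to 5.20) in mock. Mixed T cell barcodes held 18, 13 and 10 UMIs, the most of any class in both virus libraries, with 7 of the 10 in mock in 1 cell. Other sources were CD4 T cells, with 0, 4 and 8 UMIs, regulatory T cells, with 1, 0 and 5, classical monocytes, with 6, 2 and 7, B cells, with 0, 2 and 16, and in AAV-sgSCR the cDC1 dendritic cells, with 7 UMIs in 5 of 175 cells. Neutrophils had an Il10 UMI in 0 of 639 AAV-sgBaat cells, which allows up to 0.576%, and in 3 of 1004 AAV-sgSCR cells, or 0.299%. The AAV-sgSCR CD8 share therefore lay at the background.

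Mixed T cell barcodes carried the same transcripts, with ratios between the virus libraries farther from 0 than in CD8 T cells for Ifng, Fasl and Tnfsf10 but not for Tnf. Ifng stood at 25.1 CPM (22.9 to 27.4) in AAV-sgBaat, 57.9 (54.4 to 61.5) in AAV-sgSCR and 133 (120.1 to 146) in mock, and Fasl at 8.10, 32.9 and 31.9 CPM. The log2 ratio of AAV-sgBaat over AAV-sgSCR was -1.21 (-1.37 to -1.05) for Ifng, -2.02 (-2.29 to -1.77) for Fasl, -1.30 (-1.51 to -1.09) for Tnfsf10 and -0.35 (-0.55 to -0.15) for Tnf. These barcodes hold RNA of more than one lineage, so each level is diluted by the other lineage, whose share was not measured. The class was also not divided by kind of T cell, so immature T cells with a further panel fall in it too. Outside it, immature T cells were 868 in AAV-sgBaat, 94 in AAV-sgSCR and 0 in mock. Their part in these ratios was not tested. T cells with neither CD8 nor CD4 UMIs and no other T cell panel also had less Ifng in AAV-sgBaat, at 68.6 CPM against 147 CPM for AAV-sgSCR and 112 CPM for mock, and 328 of those 601 AAV-sgBaat cells had under 2000 UMIs.

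A 2-fold difference with at least 20 UMIs over both libraries was taken as a call. In CD8 T cells 7 of the 8 genes had enough UMIs for AAV-sgBaat against AAV-sgSCR, Il10 being the one that did not. Of the 7, 0 were called higher and 1, Il21, lower, where 4.26% of 11237 genes were higher and 4.69% lower. For AAV-sgBaat against mock 6 were measured and 1, Il2, was called higher (9.59% of all genes) with an interval that spans 0, and 0 lower (4.43%). For AAV-sgSCR against mock 4 of 7 were called higher, namely Tnfsf10, Lta, Il2 and Il21 (12.3%), and 0 lower (4.49%). Of these the Il21 interval (-0.24 to 4.94) spans 0, from 20 UMIs against 2 that lay in 1 mock cell. In NK cells and ILC1 together 5 were measured: against AAV-sgSCR 0 were called in AAV-sgBaat (1.2% of genes higher and 4.64% lower), and against mock Tnf was called higher (3.83%) and Ifng and Fasl lower (11.6%) in AAV-sgBaat, and Ifng and Fasl lower in AAV-sgSCR (8.91%, with 0 higher against 7.23%). The Tnf call came with a different makeup of the class, in which ILC1 carried more Tnf than NK cells did and NK cells were 117 of 241 cells in AAV-sgBaat, against 433 of 552 in mock. Within ILC1 the Tnf ratio was 0.08 (-0.73 to 0.87), and NK cells had 6 Tnf UMIs in AAV-sgBaat and 6 in mock. Taken apart, NK cells had 0 of 2 called in AAV-sgBaat against AAV-sgSCR (2.61% of genes higher, 3.57% lower). Against mock, AAV-sgBaat NK cells had Ifng and Fasl of 3 lower (14.6%) and Tnfsf10 higher (2.92%), and AAV-sgSCR NK cells had Ifng lower (11.1%) and Tnfsf10 higher (2.91%), from 8, 11 and 19 Tnfsf10 UMIs in the 3 libraries and with intervals that span 0. ILC1 of AAV-sgSCR had Ifng and Fasl of 5 lower than mock (11.4%) and 0 higher (8.52%).

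Of the transcripts measured outside these lymphocytes few were called. In neutrophils 0 of 2 were called (1.84% higher, 4.4% lower), in monocytes and macrophages 0 of 1 (3.08% and 2.7%) and in B cells of the virus libraries 0 of 2 (1.72% and 3.7%). Against mock, B cells had Tnfsf10 of 3 higher in AAV-sgBaat (13.9%) with 0 lower (15.2%), and in AAV-sgSCR Tnfsf10 of 4 higher (12.5%) and Lta lower (9.03%). Tnfsf10 in B cells stood at 5.96 CPM in AAV-sgBaat, 9.66 in AAV-sgSCR and 2.79 in mock, and Lta at 6.62, 3.74 and 8.73 CPM. RNA of other lineages in B cells was also more common in the virus libraries: Trbc2 was found in 25.4%, 14.2% and 1.82% of B cells, the cytotoxic cell gene Nkg7 in 5.399%, 6.62% and 1.41%, and S100a8 in 16.2%, 45.8% and 0.551%. Their part in the Tnfsf10 calls was not tested.

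Genes of cell stress and of other cells were read in the same classes. Summed immediate early genes (Fos, Jun, Junb, Egr1, Atf3, Dusp1, Ier2 and Nr4a1), which rise with stimulation and with handling, stood at 2409 CPM in AAV-sgBaat, 1894 in AAV-sgSCR and 3278 in mock CD8 T cells, and at 4543, 3465 and 6844 CPM in NK cells with ILC1, the same order as Ifng in NK cells with ILC1. Heat shock genes (Hspa1a, Hspa1b, Dnajb1 and Hsph1) stood at 309 CPM in AAV-sgBaat, 83.2 in AAV-sgSCR and 175 in mock CD8 T cells and at 334, 99.2 and 197 CPM in NK cells with ILC1. Their part in the Ifng and Fasl differences was not tested. The immature T cell panel stood at 62.7, 3.22 and 2.91 CPM in CD8 T cells, and with all cells that held a UMI of it left out, a step chosen after seeing the data, AAV-sgBaat over AAV-sgSCR came to -0.49 for Fasl, -0.28 for Tnfsf10 and 0.29 for Ifng.

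CD8 T cells were next divided by their antibody tags, CD90.1 and CD90.2 being the 2 allelic forms of Thy1, by which transferred and host T cells are often told apart. The labels used here do not say which cells carry CD90.1. CD90.1-dominant cells were 440 in AAV-sgBaat and 1139 in AAV-sgSCR, against 12 in mock, and CD90.2-dominant cells 394, 731 and 556. In CD90.1-dominant cells Ifng stood at 89.2 CPM (75.6 to 105) in AAV-sgBaat and 131 CPM (122 to 139.7) in AAV-sgSCR, a log2 ratio of -0.55 (-0.81 to -0.30). In CD90.2-dominant cells it stood at 184 CPM (165 to 205) in AAV-sgBaat, 129.7 (119 to 141) in AAV-sgSCR and 128 (117 to 140.4) in mock, a log2 ratio of 0.51 (0.31 to 0.71) for AAV-sgBaat over AAV-sgSCR. The even level of the whole class between the virus libraries was therefore made up of opposite directions in the tag groups.

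The death ligands did not split in this way. Fasl stood at 50.2 CPM in AAV-sgBaat and 79.0 CPM in AAV-sgSCR CD90.1-dominant cells, a log2 ratio of -0.65 (-1.002 to -0.32), and at 35.5, 44.0 and 27.5 CPM in CD90.2-dominant cells, with a ratio between virus libraries of -0.31 (-0.74 to 0.11). Tnfsf10 stood at 69.7 and 93.1 CPM in CD90.1-dominant cells, a ratio of -0.42 (-0.71 to -0.13), and at 41.1, 45.1 and 26.7 CPM in CD90.2-dominant cells, a ratio of -0.14 (-0.54 to 0.26). In both virus libraries CD90.1-dominant cells carried more Fasl, with log2 ratios of 0.50 (0.01 to 0.99) in AAV-sgBaat and of 0.85 (0.601 to 1.096) in AAV-sgSCR, and more Tnfsf10, with ratios of 0.76 (0.33 to 1.203) and 1.04 (0.81 to 1.29), than CD90.2-dominant cells of the same library.

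Among the other cytokines Il2, and Il21 in AAV-sgSCR, also differed between the tag groups. Of the 20 Il21 UMIs of AAV-sgSCR CD8 T cells 19 lay in CD90.1-dominant cells. Il2 lay mainly in CD90.2-dominant cells, with 15 of its 18 UMIs for AAV-sgBaat and 40 of its 53 for AAV-sgSCR, and in that tag group it was higher than in mock by 2.598 (1.06 to 4.41) and 2.79 (1.45 to 4.49). The mock value of that tag group rests on 5 UMIs. Of the 8 Il2 UMIs of mock CD8 T cells, 3 lay in the 20 cells with fewer than 100 tags, which the split leaves out. The ratios to mock of the whole class, given above, were smaller. Tnf and Lta had ratios of CD90.1-dominant over CD90.2-dominant cells whose intervals span 0, at -0.61 (-1.41 to 0.16) and -0.44 (-1.85 to 0.90) in AAV-sgBaat, and -0.13 (-0.50 to 0.25) and -0.28 (-0.85 to 0.29) in AAV-sgSCR.

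**Figure D4:**
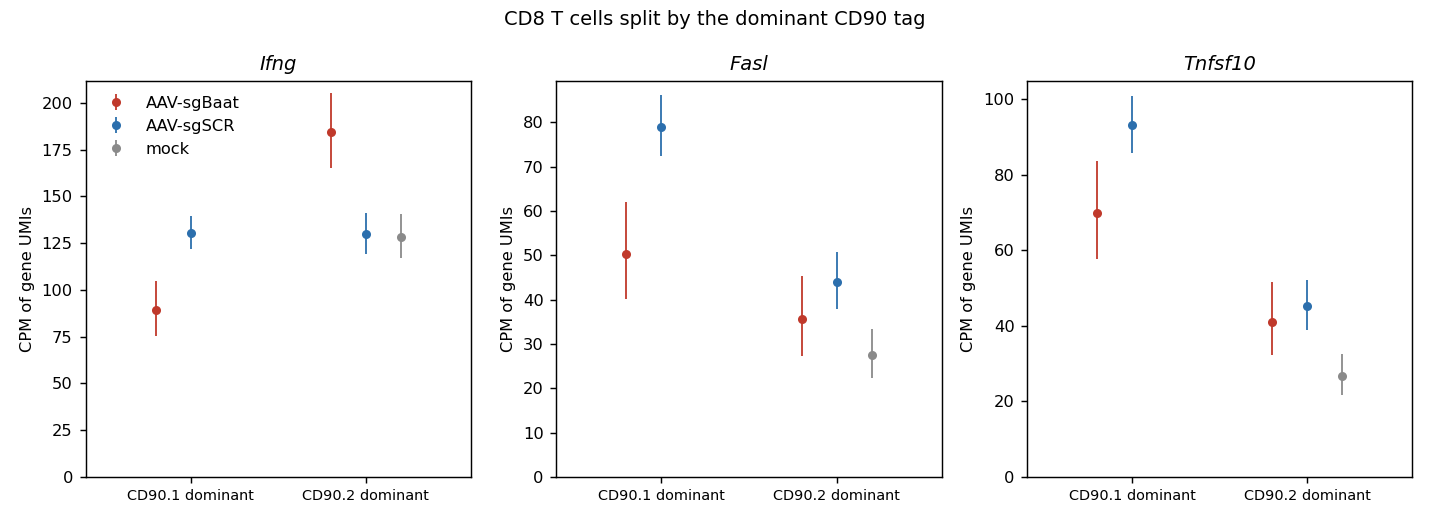
Level of Ifng, Fasl and Tnfsf10 (CPM, vertical axes) in CD8 T cells of the AAV-sgBaat, AAV-sgSCR and mock libraries, split by the dominant CD90 tag; groups under 50 cells are not drawn. Points are summed levels and bars exact 95% Poisson intervals. For Ifng the AAV-sgBaat point lies below AAV-sgSCR in CD90.1-dominant cells (89.2 against 131 CPM) and above it in CD90.2-dominant cells (184 against 129.7 CPM).

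In 3 pairs of transcripts, CD8 T cells with a UMI of one had the other at a higher share than cells without it, although most cells with one lacked the other. Of cells with an Ifng UMI 19.5% also had Fasl in AAV-sgBaat, 32.8% in AAV-sgSCR and 33.7% in mock, against 12.8%, 25.8% and 6.63% of cells without Ifng. The gap was widest in mock, where the median depth was 5709 UMIs with and 5831 without Ifng, whereas cells with Ifng were deeper in AAV-sgBaat (3950 against 3433) and AAV-sgSCR (5253 against 4888.5). Tnfsf10 was found in 33.3%, 39.3% and 25% of cells with Fasl, against 14.9%, 26.7% and 11.2% without, and Lta in 9.26%, 11.3% and 5% of cells with its neighbour Tnf, against 1.48%, 3.82% and 2.37% without. Cells with Fasl were 126, 539 and 88, and cells with Tnf only 54, 195 and 40, so the Lta shares rest on few cells. The part of depth in these 2 pairs was not tested. Among NK cells and ILC1 Fasl was about as common with Ifng as without it, at 15.4% against 14.6% in AAV-sgBaat, 27.5% against 29.1% in AAV-sgSCR and 49.6% against 46.7% in mock.

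Across 41 points, each a cell class of at least 50 cells in 1 library, the genes most like Ifng were Fasl (Pearson r of 0.98), Il2rb, a receptor chain for interleukins 2 and 15 (0.98), and Tbx21, which encodes the T-bet factor (0.97). Fasl was closest to Ifng, Il2rb (0.97) and Sytl2 (0.96), Tnfsf10 to Ccdc136 (0.92), Pglyrp2 (0.90) and Adgrl1 (0.88), and Il2 to Podnl1 (0.92), Zfp683 (0.88) and Ccdc136 (0.87). Tnf had weaker matches, with Lcp1 (0.75), Isg15 (0.73) and Myl6 (0.71), and correlated with Ifng at only 0.27, and Lta was closest to H2-Q7 (0.71), Gbp4 (0.70) and H2-Q4 (0.69). Points of 1 library share its depth and free RNA, and most of the range lies between lymphoid and other classes.

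The receptors of these ligands were read from a list of 13 genes. In CD8 T cells all 13 had enough UMIs for AAV-sgBaat against AAV-sgSCR, of which 2 were called higher and 1 lower, with a median log2 ratio of 0.11 against -0.02 over all genes tested. Ifngr2, the signalling chain of the interferon-gamma receptor, stood at 13.4 CPM in AAV-sgBaat and 4.33 CPM in AAV-sgSCR, a ratio of 1.63 (1.02 to 2.24), and the TRAIL receptor Tnfrsf10b at 3.06 and 1.38, a ratio of 1.15 whose interval (-0.12 to 2.37) spans 0. Il2ra, the high-affinity interleukin 2 receptor chain, stood at 2.79 CPM in AAV-sgBaat and 8.47 CPM in AAV-sgSCR, a ratio of -1.60 (-2.71 to -0.66). Against mock, 0 of 12 were called in AAV-sgBaat, while AAV-sgSCR had 2 higher, Tnfrsf1b (1.07) and Il2ra (1.096), and 3 lower, Ifngr2 (-1.87), the death receptor Fas (-1.23, at 9.12 against 21.4 CPM) and Tnfrsf10b (-1.199, with an interval of -2.39 to 0.03), with a median of 0.22 against 0.12 over all genes.

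In NK cells and ILC1 the same 3 receptors, Ifngr2, Ltbr and Il2ra, were called lower in AAV-sgBaat than in AAV-sgSCR (-1.74, -2.55 and -1.42) and higher in AAV-sgSCR than in mock, 3 of 11 each time. Their UMIs were 4, 2 and 5 in AAV-sgBaat, 24, 21 and 24 in AAV-sgSCR and 0, 2 and 2 in mock, and these comparisons share the AAV-sgSCR library. Ltbr, the lymphotoxin-beta receptor, is typical of myeloid and stromal cells. S100a8 and S100a9, neutrophil genes, stood at 159 CPM in AAV-sgBaat, 367 in AAV-sgSCR and 6.41 in mock NK cells and ILC1, and their part in these counts was not tested.

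Of 8 death signalling genes, such as Fadd and Casp8, 0 were called between the virus libraries in CD8 T cells (median -0.17) or in NK cells and ILC1 (median 0.18). Fadd, the adaptor that links death receptors to caspase 8, was called higher in AAV-sgSCR than in mock CD8 T cells (1.41, at 9.85 against 3.70 CPM). Birc3, an inhibitor of TNF-induced death, was lower in AAV-sgBaat than in mock NK cells and ILC1 (-1.51), and Ripk1, a kinase of the TNF receptor complex, lower in AAV-sgSCR than in mock (-1.29). The share of NK cells in this pooled class was higher in mock, and its part in both ratios was not tested.

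Of 17 other effector ligands 9 had enough UMIs in CD8 T cells of the virus libraries, and 3 were called lower in AAV-sgBaat, where 4.69% of all genes were lower, with a median of -0.81 against -0.02 over all genes. They were Cd40lg, which encodes CD40 ligand, with 6 against 49 UMIs and a ratio of -1.43 (-2.95 to -0.21), Csf2, which encodes GM-CSF, with 2 against 18 UMIs and a ratio of -1.57 (-4.72 to 0.49), and Il17a, with 1 against 21 UMIs and a ratio of -2.80 (-8.17 to -0.16). AAV-sgSCR over mock had 3 of 7 higher, where 12.3% of all genes were higher, with a median of 0.77 against 0.12. They were Tnfsf8 (1.70, at 87.5 against 27.0 CPM), Tnfsf9 (2.15) and Il18. Il18 had 30 UMIs against 0, or 3.48-fold with mock set at 3 counts, a value that leaves out counting error. In AAV-sgBaat against mock 1 of 4, Cd40lg, was lower (-1.73). In NK cells and ILC1 Tnfsf8, the CD30 ligand, was higher than mock in AAV-sgBaat (1.40) and in AAV-sgSCR (1.83), Ltb higher in AAV-sgBaat (1.09) and Il15 lower in AAV-sgSCR, by a ratio of -1.03 whose interval (-2.65 to 0.36) spans 0. NK cells were 117 of 241 cells of this pooled class in AAV-sgBaat and 115 of 285 in AAV-sgSCR, against 433 of 552 in mock. The part of this makeup in these ratios was not tested.

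Among 13 regulators of these genes none was called between the virus libraries in CD8 T cells, with a median of -0.20. Eomes, a T-box factor of memory CD8 T cells and NK cells, was lower than mock in CD8 T cells, at 22.3 CPM in AAV-sgBaat and 17.2 CPM in AAV-sgSCR, against 55.5 in mock, with ratios of -1.32 (-1.71 to -0.94) and -1.69 (-1.98 to -1.40). In NK cells and ILC1, where Eomes also served to tell NK cells apart, it was lower by ratios of -1.78 and -2.16, Prdm1 by -1.09 and -2.10, Zfp36l2, a factor that destabilises cytokine transcripts, by -1.19 in AAV-sgBaat and Nfatc2 by -1.05 in AAV-sgSCR. Prdm1 had a ratio of 1.01 (-0.04 to 2.08) there between AAV-sgBaat and AAV-sgSCR. NK cells were 117 of 241 cells of that class in AAV-sgBaat and 115 of 285 in AAV-sgSCR, against 433 of 552 in mock.

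In myeloid cells few list genes were called between the virus libraries. Neutrophils had 1 of 11 receptors lower in AAV-sgBaat, the interleukin 10 receptor chain Il10ra (-1.34, at 7.41 against 18.7 CPM), and 1 of 5 other ligands lower, Il18, at 3 against 19 UMIs with a ratio of -1.45 (-3.85 to 0.32). Monocytes and macrophages had Il21r higher (1.03), Tnfsf9 lower (-1.05) and 3 of 10 regulators higher, Stat4 (1.27), Maf (1.29) and Nfatc2 (1.65). In that class macrophage panel genes stood at 3267 CPM in AAV-sgBaat and 833 CPM in AAV-sgSCR, and their part in the list values was not tested.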

How the data were processed

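Gene and antibody-tag UMI counts of 3 mRNA libraries were used, from droplet 3′ sequencing of liver immune cells. The values are counts as deposited, not normalized, made by the authors with Cell Ranger 6.0.1 per the file headers, on mm10 per the submitters' processing notes. The matched antibody-tag libraries were sequenced as samples of their own, and their tag counts, deposited with the mRNA counts, were used only to split CD8 T cells by CD90.1 and CD90.2, at a minimum of 100 tags.

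Barcodes with at least 500 genes, at least 1000 gene UMIs and at most 10% mitochondrial UMIs were kept (7094 AAV-sgBaat, 7332 AAV-sgSCR and 6068 mock). Classes were set by thresholds on UMIs of marker panels: 2 UMIs of Cd3d, Cd3e and Cd3g for T cells, Cd8a or Cd8b1 without Cd4 for CD8 T cells, 2 UMIs of Ncr1, Klrb1c, Klre1 and Klrb1f without the T panel for NK cells and ILC1, which the larger of an NK and an ILC1 panel then separated, and like panels for other classes. Barcodes with panels of several lineages were set aside, which also served as the removal of doublets, and a Scrublet score (scanpy 1.11.5) was an alternative. The members, gene lists and thresholds were chosen with earlier results of these data known.

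UMIs were summed per class and library and divided by the gene UMIs of the class. Sums have exact Poisson intervals, shares exact Clopper-Pearson intervals, and ratios exact conditional intervals, all at 95%, from scipy 1.17.1, with numpy 2.4.6 and pandas 2.3.3. These cover counting error only, since each group had 1 library, and no model or p-value was computed. The intervals of sums and ratios take each UMI as a separate count, so they leave out any uneven spread of UMIs over cells. The depth was 46301256 gene UMIs in AAV-sgBaat, 61084903 in AAV-sgSCR and 31256049 in mock. The 8 members were named whatever their values, and list genes were named where they differed at least 2-fold at 20 or more UMIs over both libraries. The rule for the most similar genes was the highest Pearson r of log2(CPM + 1) over classes of at least 50 cells, for members with at least 100 UMIs and other genes with at least 200. The 2-fold call was tested on simulated counts. Alternatives were stricter panels, mixed barcodes kept, Scrublet removal, stricter barcode filters, thinning to 2000 or 1000 UMIs, a cap of 2 UMIs per cell, other totals and scaling, and other UMI filters. Gene names came from the deposited feature tables and promoters from RefSeq. A further split of CD8 T cells by a gene panel is not reported here.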

Additional observations from a re-analysis of the deposited data

Results flagged for a closer look

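Several transcripts differed in opposite directions between cell classes when AAV-sgSCR was set against mock, with intervals clear of 0 on both sides. Each value is a log2 ratio of AAV-sgSCR over mock from 1 library per group, and the difference was not tested. Fasl was higher in CD8 T cells (0.92) and CD4 T cells (1.08) and lower in T cells of the gamma-delta class (-1.03), NK cells (-0.62) and ILC1 (-1.91). Ifng was higher in CD4 T cells (0.75) and lower in NKT cells (-1.02), gamma-delta T cells (-1.31), NK cells (-1.41) and ILC1 (-1.74). Tnfsf10 was higher in CD8 T cells (1.25) and B cells (1.79) and lower in ILC1 (-0.78). In B cells RNA of other lineages was also more common in AAV-sgSCR than in mock (Trbc2 in 14.2% against 1.82% of cells, Nkg7 in 6.62% against 1.41%, S100a8 in 45.8% against 0.551%), and its part in the Tnfsf10 ratio was not tested. Tnf was higher in CD8 T cells (0.94) and CD4 T cells (1.64) and lower in plasmacytoid dendritic cells (-0.90), where 16 of the 42 mock UMIs lay in 1 cell. In AAV-sgSCR CD4 T cells 1 cell held 6 of the 21 Tnf UMIs and 1 cell 13 of the 72 Ifng UMIs. The makeup of CD4 T cells also differed, with Nkg7 in 54.2% of AAV-sgSCR and 19.1% of mock cells and Tcf7 in 53.4% and 87.6%. Its part in the CD4 ratios was not tested. Lta was higher in CD8 T cells (1.19) and lower in B cells (-1.22) and plasmacytoid dendritic cells (-2.20), where 34 of the 39 mock UMIs lay in 1 cell.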

How the results depend on the processing

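Limits first: each group was 1 pooled library, so no interval holds the spread between animals, and depth limits Il10, Il21 and Il2, each under 200 UMIs per library. No paired analysis was possible because each group had 1 library. No result changed direction with its interval clear of 0 under any alternative run. Of the main results, the Ifng log2 ratio of AAV-sgBaat over AAV-sgSCR in CD8 T cells moved to 0.29 when cells with immature T panel UMIs were left out, an alternative chosen after seeing the data, and the Fasl ratio moved to -0.97 after thinning to 1000 UMIs. The counts of genes at least 2-fold higher or lower depended on the UMI filter. In CD8 T cells they were 479 and 527 at 20 UMIs, 243 and 267 at 50 UMIs, and 2072 and 3236 with no filter, and in NK cells with ILC1 96 and 372, 23 and 102, and 1170 and 2722. Median-ratio scaling gave 501 and 505 in CD8 T cells and 104 and 349 in NK cells with ILC1. Stricter panels moved 0 of 48 ratios beyond their intervals, keeping mixed barcodes 4 of 48 and thinning to 2000 UMIs 5 of 48. Of 34 shares of UMIs or cells stricter panels moved 0, keeping mixed barcodes 20 and thinning to 2000 UMIs 26. With mixed barcodes kept in CD8 T cells the Ifng ratio to mock was -0.48 for AAV-sgBaat and -0.46 for AAV-sgSCR. Thinning to 2000 UMIs moved the ILC1 Ifng ratio of AAV-sgBaat over AAV-sgSCR to 0.44. At a limit of 5% mitochondrial UMIs the CD8 Lta ratio was -0.07. The cause of these shifts was not tested.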
